A study of Mus musculus with 2 samples.

Results

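The genes described here are 8 mouse genes of MHC class II antigen presentation, namely H2-Aa, H2-Ab1, H2-Eb1, Cd74, Ciita, H2-DMa, H2-DMb1 and H2-DMb2. They were taken by name, as every non-control probe whose RefSeq accession maps to one of these symbols. This gave 9 of the 55680 probes and 8 of the 20660 genes that could be named on the array. H2-Ab1 had 2 probes and each of the other members had 1, and every one of these probes was a single spot. The accessions carried by the probes were NM_010378 for H2-Aa, NM_207105 for both probes of H2-Ab1, NM_010382 for H2-Eb1, NM_001042605 for Cd74, NM_001243760 for Ciita, NM_010386 for H2-DMa, NM_010387 for H2-DMb1 and NM_010388 for H2-DMb2.

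WT and ESAM-KO mice were compared after marrow injury, with 1 array each. The WT array carried RNA from wild-type C57BL/6 mice, and the ESAM-KO array RNA from C57BL/6 mice that lack ESAM, the endothelial cell-selective adhesion molecule. All mice were 8 to 12 weeks old and had received 1 injection of 5-FU (5-fluorouracil, a drug that kills dividing cells) at 120 mg/kg, and marrow was taken on day 8, so both groups share the drug and no untreated array was analysed here. Marrow of 3 mice was pooled per genotype, and pre CFU-E, progenitors that lie upstream of the erythroid colony-forming cell, were sorted as cells negative for the lineage antigens Mac1, Gr1, CD3e, B220 and Ter119, negative or low for Fc gamma receptors, low for CD41, positive for c-Kit, endoglin and CD150, and negative for Sca1. The deletion is constitutive, so it was carried by every cell of the animal and not only by the sorted fraction.

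MHC class II molecules are pairs of an alpha and a beta chain that show peptides from endocytosed proteins to CD4 T cells. The chains are assembled with the invariant chain Cd74, whose remnant CLIP is later exchanged for a peptide by the heterodimer H2-DM, an exchange that H2-DO restrains. Ciita is the transactivator that is recruited to the promoters of these genes by factors bound to conserved X and Y boxes. The products are best known from B cells, dendritic cells and macrophages, and H2-DM and Cd74 are used by the same cells. In C57BL/6 mice the alpha chain of I-E is not made, so that the H2-Eb1 product does not reach the surface as I-E.

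Promoters of chain and H2-DM genes are shown because Ciita acts through X and Y boxes, and because the expression values of genes with this arrangement differed widely below. The sequences are RefSeq sequences of build GRCm38.p6, 80 bases each, written 5′ to 3′ on the strand of the gene. Capitals mark an X half-site (AGNAAC or GGNAAC) and a Y core (ATTGG, an inverted CCAAT box). H2-Aa lies on the minus strand (chr17:34287846-34287925), and H2-Eb1 (chr17:34305754-34305833), H2-DMb1 (chr17:34153076-34153155) and H2-DMb2 (chr17:34145105-34145184) lie on the plus strand.
H2-Aa: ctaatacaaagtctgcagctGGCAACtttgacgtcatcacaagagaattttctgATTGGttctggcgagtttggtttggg
H2-Eb1: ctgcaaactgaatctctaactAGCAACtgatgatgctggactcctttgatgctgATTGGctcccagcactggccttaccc
H2-DMb1: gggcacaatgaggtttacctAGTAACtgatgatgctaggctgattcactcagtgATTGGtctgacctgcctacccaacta
H2-DMb2: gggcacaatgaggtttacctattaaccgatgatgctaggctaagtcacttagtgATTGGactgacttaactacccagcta

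In H2-Aa the X half-site started at -82 from the annotated start and the Y core at -48, 34 bases apart. The spacing was 33 bases in H2-Eb1 (-92 and -59) and 34 in H2-DMb1 (-95 and -61). The H2-DMb1 and H2-DMb2 stretches were identical at 70 of 80 bases (87.5%). Of the 6 bases that form the X half-site of H2-DMb1, 1 differed in H2-DMb2, which therefore lacked the searched letters there while keeping the Y core at -90. H2-DMa had 2 windows, at chr17:34122582-34122881 and chr17:34125268-34125567 on the plus strand, and neither held the pair. The letters were searched on both strands, in windows from 250 bases before to 50 bases after each of 32851 annotated starts. An X half-site was found in 71.5% of these windows and a Y core in 37.4%, each counted regardless of the other, whereas an X half-site followed on the same strand by a Y core 30 to 36 bases on was found in 240 windows, or 0.731%. This spacing was set after the sequences above had been seen, so the share cannot show how far the pair sets these genes apart. Windows were found for 5 of the 8 members, and H2-Ab1, Ciita and Cd74 are named only. A match of letters is a description of the sequence and shows no binding.

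Intensities are the scanner software's values after background subtraction, in arbitrary units, each with the software's own error. Before ratios were formed, each array was divided by its own 75th percentile, 201.4 for WT and 251.1 for ESAM-KO. This step places all log2 ratios (ESAM-KO over WT) 0.32 below their unscaled values. Of the spots, 57.3% (WT) and 61.1% (ESAM-KO) were well above background, and saturation was not met. There was 1 array per genotype, so no value below has an SD, a test or a p-value, and a difference of genotype cannot be told apart from one between the pools, sorts, amplifications or hybridisations. A 2-fold difference was used as the criterion for higher or lower, following the study's methods. The probe of Esam itself read 27.4 ± 3.74 for WT and 20.6 ± 3.38 for ESAM-KO, a log2 ratio of -0.73 with a scanner error of 0.31, so the targeted gene was not separated by 2-fold. Whether this probe lies within the deleted part was not tested.

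Of the 8 class II genes, 4 were lower on the ESAM-KO array by more than 2-fold and none was higher. These were H2-Aa, Cd74, H2-DMb1 and H2-DMb2. H2-DMa lay at the 2-fold line, and H2-Ab1, H2-Eb1 and Ciita were within it. Over all 14136 named genes with a ratio, 8.43% were lower by more than 2-fold and 6.99% were higher. Among the 10369 genes whose mean signal lay within the range of the members, these shares were 10.5% and 9.19%. The median log2 ratio of the members was -1.18, or -1.0 over the 7 that were well above background on both arrays, against 0.00 over all genes. The 8 genes share one pathway and the same pair of RNA pools, so they are not replicates of each other. In pooled RNA of a sorted fraction, fewer cells that express a gene and less RNA of it per cell cannot be told apart.

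**Figure D1:**
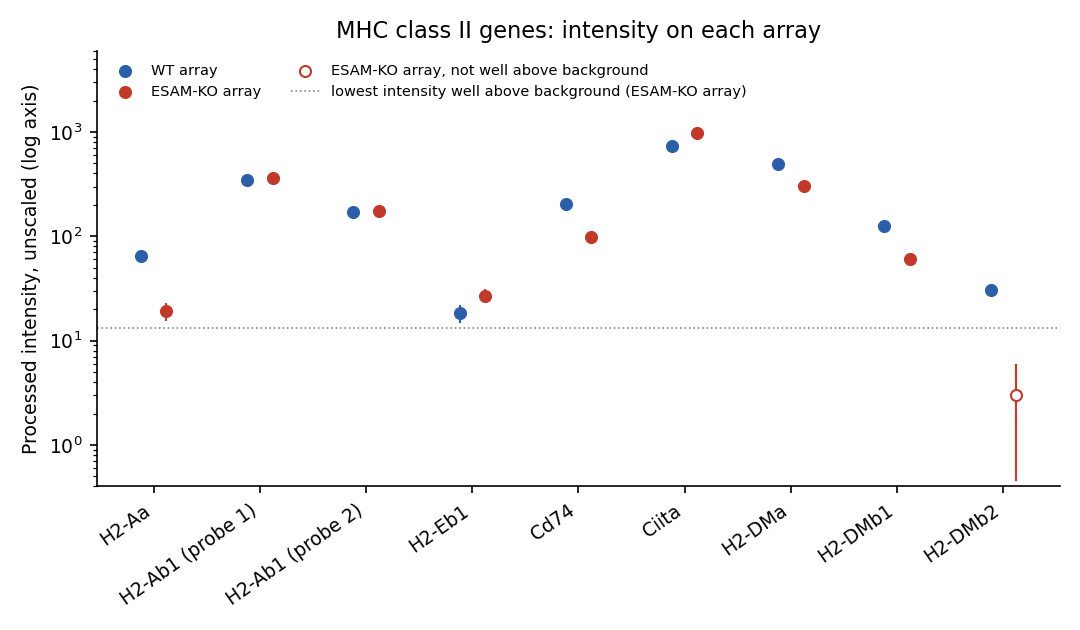
Unscaled processed intensity (log axis, arbitrary units) of the 9 class II probes for WT (blue) and ESAM-KO (red), 1 point per array, with bars for the scanner software's error where they exceed the point; levels of different probes are not comparable. Both H2-Ab1 probes nearly coincide between arrays, whereas H2-Aa is at 65.1 against 19.3 and H2-DMb2 at 30.3 against 2.99, below the dotted line at 13.2, the lowest ESAM-KO intensity well above background.

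The chains of I-A, the class II molecule that C57BL/6 mice display, did not behave alike. H2-Aa, the alpha chain, had an intensity of 65.1 ± 7.25 for WT and 19.3 ± 3.82 for ESAM-KO. After scaling this was 4.22-fold lower on the ESAM-KO array, a log2 ratio of -2.08 with a scanner error of 0.33. The ESAM-KO reading was above background but near it, since the lowest intensity well above background on that array was 13.2. H2-Ab1, the beta chain that pairs with H2-Aa, was read by 2 probes that did not separate the arrays by 2-fold. The brighter probe gave 344.2 ± 34.5 for WT and 359.0 ± 36 for ESAM-KO, a log2 ratio of -0.26 with an error of 0.20. The other gave 169.3 ± 17.2 and 174.4 ± 17.7, a log2 ratio of -0.28 with an error of 0.21. The H2-Ab1 probes thus lay within 0.02 of each other on the log2 scale, and both were slightly below 0 because of the scaling, since the unscaled log2 ratios were 0.06 and 0.04. Each I-A chain was measured in the same RNA, so the difference between the chains is one between probes on the same pair of arrays. No second probe of H2-Aa was named, so that its value rests on 1 spot per array.

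H2-Eb1, the beta chain of I-E, was dim on both arrays, with an intensity of 18.4 ± 3.61 for WT and 27 ± 4.18 for ESAM-KO. The log2 ratio was 0.23 with a scanner error of 0.36, so the arrays were not separated beyond the scanner error. Its promoter holds the X and Y letters at almost the same spacing as that of H2-Aa, and the ratios of these genes lay on opposite sides of 0.

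Cd74, the invariant chain that accompanies newly made chains out of the endoplasmic reticulum, had an intensity of 202.1 ± 20.4 for WT and 98.2 ± 10.3 for ESAM-KO. This was 2.57-fold lower on the ESAM-KO array, a log2 ratio of -1.36 with a scanner error of 0.21. Unlike H2-Aa it was far above background on both arrays, and without any scaling between arrays its log2 ratio was -1.04.

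The 3 H2-DM genes, which encode the peptide exchanger, were all dimmer on the ESAM-KO array. H2-DMa, the alpha chain, gave 490.5 ± 49.1 for WT and 306.7 ± 30.8 for ESAM-KO. It was 1.99-fold lower, a log2 ratio of -1.0 with an error of 0.20, which is just within the 2-fold criterion, and it passed that criterion when arrays were scaled to their medians (-1.13) or by cyclic loess (-1.02). H2-DMb1, a beta chain, gave 124.7 ± 12.9 and 60.5 ± 6.96, which was 2.57-fold lower, a log2 ratio of -1.36 with an error of 0.22. H2-DMb2, the other beta chain gene, gave 30.3 ± 4.19 on the WT array and did not stand well above background for ESAM-KO, at 2.99 ± 3. Its ratio is therefore a bound, taken against the lowest signal well above background on that array, of at least 2.88-fold lower (log2 ratio of -1.52 or below). The beta chain genes are close copies of each other, so that either probe may also bind cDNA of the other gene, and their values are uncertain as values of single genes.

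Ciita, the transactivator on which expression of class II genes in antigen-presenting cells depends, was not lower. Its intensity was 727.7 ± 72.8 for WT and 975.1 ± 97.6 for ESAM-KO, a log2 ratio of 0.10 with a scanner error of 0.20. Ciita is transcribed from several promoters in different cell types, and which of these transcripts the single probe reads was not tested. Its reading was well above background on both arrays, so the small ratio is not one of a gene at the detection limit.

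**Figure D2:**
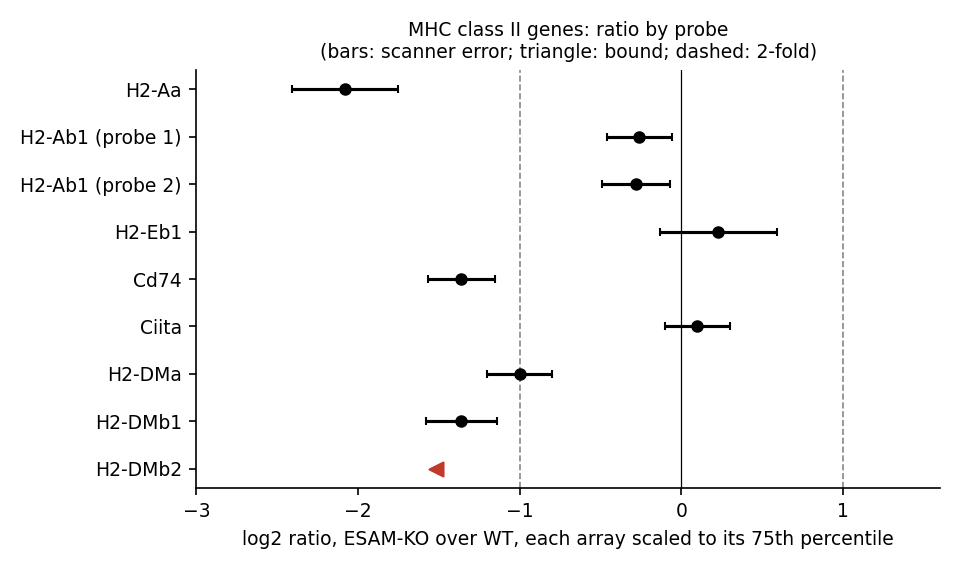
Log2 ratio of ESAM-KO over WT for each class II probe, with each array scaled to its 75th percentile; bars are the scanner software's error on each ratio and not a replicate error, and the triangle is the bound of H2-DMb2. H2-Aa (-2.08), Cd74 (-1.36), H2-DMb1 (-1.36) and the bound of H2-DMb2 (-1.52) lie below the dashed 2-fold line at -1, H2-DMa lies on it, and the 2 probes of H2-Ab1, H2-Eb1 and Ciita lie between -0.28 and 0.23.

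Most of the members lie together in the class II region of chromosome 17, and the genes around them did not show one common ratio. In chromosomal order from H2-Oa to Btnl2, 15 named genes included 6 of the members. Of the 9 others, all had a ratio, and their median log2 ratio was -0.20. Read beside 8.43% lower and 6.99% higher over all genes, 1 of them was lower by more than 2-fold and none was higher. The one lower gene was Tap1, a subunit of the transporter that brings peptides to class I molecules, with an intensity of 93.8 for WT and 47.9 for ESAM-KO over 8 spots of its probe (log2 ratio -1.29, scanner error 0.08). H2-DMa, H2-DMb2, H2-DMb1 and Tap1 are all in the first part of that order, but Psmb9, an immunoproteasome subunit that lies between H2-DMb1 and Tap1, had a log2 ratio of -0.49, and Psmb8 next to Tap1 had 0.06. H2-Ab1 and H2-Eb1, which flank H2-Aa on either side, were within 2-fold. In a wider set of neighbours from H2-K1 to Pbx2, 22 of 26 genes had a ratio, with a median of -0.18. The 4 lower ones were H2-Aa, H2-DMb1, H2-DMb2 and Tap1, and Pbx2 had the highest log2 ratio at 0.99.

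**Figure D3:**
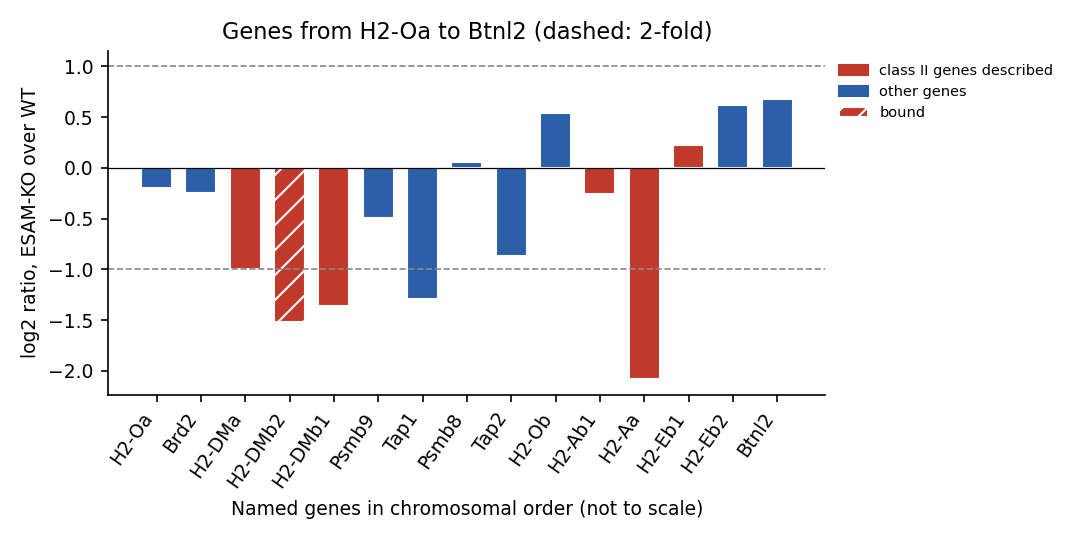
Log2 ratio of ESAM-KO over WT for the 15 named genes from H2-Oa to Btnl2 in chromosomal order, evenly spaced and not to scale; red bars are class II genes described here, blue bars the other genes, the hatched bar a bound, and dashed lines mark 2-fold. The bars below -1 are H2-DMb2, H2-DMb1, Tap1 and H2-Aa, and H2-Aa stands between H2-Ab1 (-0.26) and H2-Eb1 (0.23).

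The other class II genes of the region were not lower by 2-fold when the brightest probe was taken. H2-Oa and H2-Ob encode the chains of H2-DO, the inhibitor of H2-DM, and H2-Eb2 encodes a further beta chain. H2-Oa had intensities of 76 and 82.3 on the WT and ESAM-KO arrays (log2 ratio -0.20). H2-Eb2 was near background, with 13.6 and 26.1 (0.62). The H2-Ob probes disagreed. Its brighter probe read 81.4 and 148.1 (log2 ratio 0.54), whereas its other probe read 63.6 for WT and did not stand well above background for ESAM-KO, at least 6.03-fold lower. H2-Oa, H2-Ob and H2-Eb2 each held the paired X and Y letters in their promoter windows, as H2-Aa, H2-Eb1 and H2-DMb1 did, while Tap1, Psmb8 and Psmb9 did not. Of the 6 genes with the pair, H2-Aa and H2-DMb1 were lower by more than 2-fold and the other 4 were within 2-fold by their brightest probes. H2-Ea was not named on the array.

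The factors that act with Ciita on the X and Y boxes gave no gene past 2-fold in either direction. All 12 of them had a ratio, and their median log2 ratio was -0.20. The largest were Rfxank, a subunit of the RFX complex that binds the X box, with 149.6 for WT and 99.6 for ESAM-KO (-0.91), the acetyltransferase Kat2b with 34.5 and 75.4 (0.81), and Nfya, a subunit of the factor that binds the Y box, with 1671 and 1315 (-0.66). Rfx5, the DNA-binding subunit of RFX, was at -0.49 by its brighter probe (186.0 and 165.1), while a dimmer probe went the other way (15.3 and 156.8, log2 ratio 3.04).

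Of 13 listed regulators of the Ciita gene, 9 had a ratio with a median of 0.04. Of these, 2 were lower by more than 2-fold and none was higher, read beside 8.43% and 6.99% of all genes. Spi1 (PU.1), a myeloid and B cell factor that binds Ciita promoters, fell from 439.8 on the WT array to 36.9 on the ESAM-KO array, a log2 ratio of -3.89. Sin3a, a corepressor subunit, read 788.1 and 438.2 (-1.17). Pax5, the B cell identity factor, read 89.4 and 56.2 (-0.99), just within 2-fold, and a dimmer probe gave a bound of -1.30. Irf4, Irf8, Id2 and Zbtb32 stood well above background on neither array.

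Interferon gamma is the best known inducer of Ciita. Of the 15 genes of its pathway with a ratio, 5 were lower by more than 2-fold on the ESAM-KO array and none was higher. Their median was -0.31. Counts past 2-fold here and in the lists below are read beside the shares of all genes, 8.43% lower and 6.99% higher. The part of interferon gamma in the class II values was not tested. Irgm1 and Igtp, GTPases of the interferon-inducible family, were lowest. Irgm1 read 586.1 for WT and 146.0 for ESAM-KO (-2.32), with a second probe at -1.77, and Igtp read 289.6 and 88.7 over 9 spots (-2.03). The others were Gbp3 (-1.79), Gbp2 (-1.40) and Irf1, the factor that acts at the interferon-responsive Ciita promoter, at -1.13. Irf1 was inconsistent between probes, since the bright probe read 6032 and 3444 and a dimmer one 52.3 and 333.8 (log2 ratio 2.35). The receptor chain Ifngr1 (-0.26) was within 2-fold, as were the inducible genes Iigp1 (0.69), Cxcl9 (0.16) and Cxcl10 (0.52) by their brightest probes. Dimmer probes of Iigp1 (12.6 and 3.25) and Cxcl9 (2.75 and 3.96) stood well above background on neither array. Naming Gbp3, Gbp2, Irf1 and the genes within 2-fold here was decided after their values were seen.

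Steps of the pathway after assembly were mostly level. Among 10 genes for invariant chain processing and peptide loading, none was lower, 2 were higher and the median was -0.08. The higher ones were the proteases Ctss, which trims the invariant chain, and Lgmn, both as bounds, because neither was well above background on the WT array. Ctss read 7.13 and 37.8 (log2 ratio of 1.27 or above) and Lgmn 9.77 and 36 (1.20 or above), whereas Ctsb, a bright lysosomal protease, read 2602 and 2119 (-0.61). Of the genes for class II turnover and trafficking, 8 had a ratio, none passed 2-fold and the median was 0.04. The largest were the tetraspanins Cd82 (-0.64) and Cd63 (0.35), which sit with class II molecules in endosomes. Dimmer probes of Cd82 disagreed, at -1.0 and 0.66. For costimulation, 3 of 9 genes had a ratio, with 1 higher, none lower and a median of 0.78. Cd80 was the only one well above background on both arrays (166.1 and 355.4, log2 ratio 0.78), the higher one was Cd274 by its bound (1.21), and Cd86 and Cd40 stood well above background on neither array. A dimmer Cd80 probe (4.44 and 2.85) also stood well above background on neither array.

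Class I molecules present peptides of cytosolic proteins, and several of their genes lie in the same region. All 20 listed genes had a ratio, with a median of -0.27. Of these, 1 was lower (Tap1) and none was higher, read beside 8.43% and 6.99% of all genes. Tap2, the partner of Tap1, read 891.7 and 609.9 (-0.87), and B2m, the light chain of class I, 15938 and 15814 (-0.33).

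**Figure D4:**
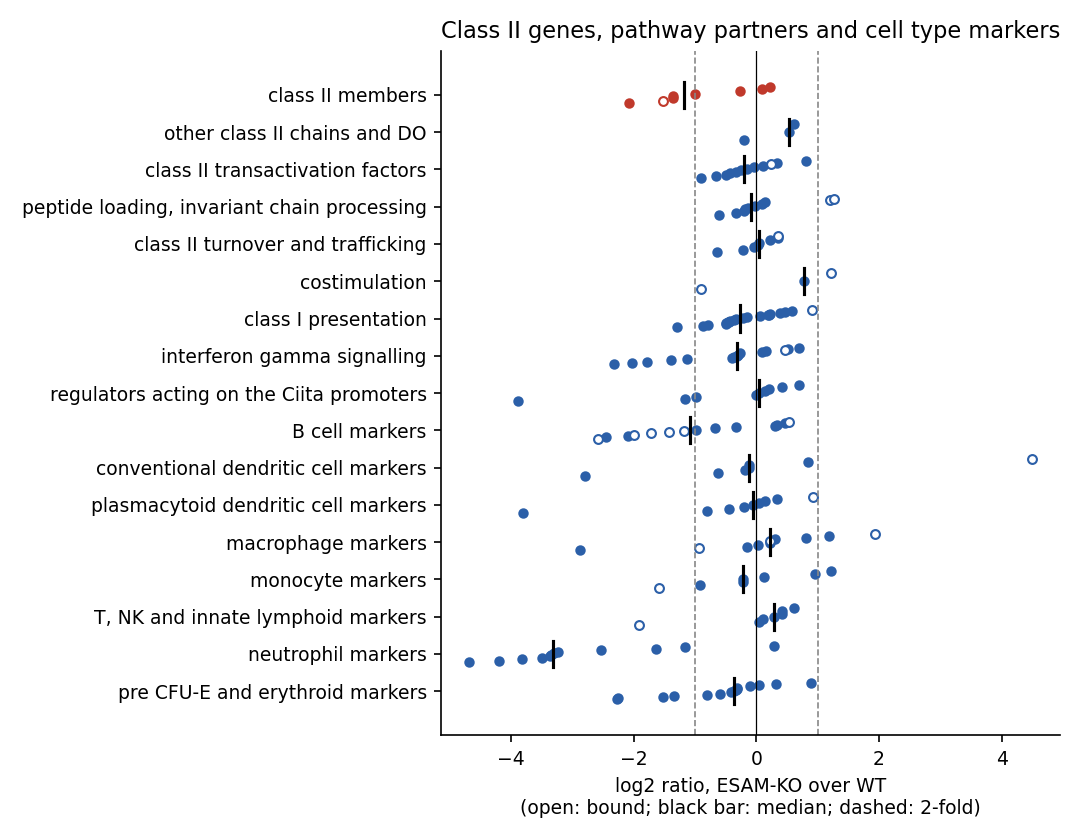
Log2 ratio of ESAM-KO over WT for every gene with a ratio in the class II members (red) and in 16 other gene lists (blue), 1 point per gene; open points are bounds, black bars list medians and dashed lines 2-fold. The members' median is -1.18, below that of every pathway list, while the B cell list has -1.08 and the neutrophil list -3.32.

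Markers of the cell types that usually express class II genes are given beside the members. The sort gated out cells with B220, Mac1, Gr1 or CD3e on their surface, and the study checked the purity of its sorted fractions. Whether RNA of such cells remained in the pools was not tested. Summed signals of the lists are given as totals over probes of unlike brightness, so that 1 bright probe can carry most of a sum, and each is also given without its brightest gene. The labelled cell type was checked with a list for pre CFU-E and erythroid cells, all 15 genes of which were detected by both arrays, although Slamf1, which encodes the sort antigen CD150, was dim (17.8 and 23). Of these, 4 were lower, none was higher and the median was -0.36. Hba-a1, an alpha globin, was among the lower ones (-2.26), and Gata1, the central erythroid factor, was at -0.34. The summed signal of the list was 64455% of the 75th percentile for WT and 31572% for ESAM-KO, and without Hba-a1 29961% and 24379%.

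Of 16 listed B cell markers, 14 had a ratio, 7 were lower by more than 2-fold and none was higher, with a median of -1.08, or -0.50 over the 8 above background on both arrays. Vpreb1, a surrogate light chain of the precursor B cell receptor, read 255.5 for WT and 58.2 for ESAM-KO (-2.45), and Cd79b, a signalling chain of the receptor, read 67.8 and 19.8 (-2.09). Igll1 (-2.58) and Ebf1 (-1.72) were lower by their bounds, and this pair was named after its values were seen. Of the defining markers, Ms4a1 stood well above background on neither array. The summed signal of the B cell list was 3478% of the 75th percentile for WT and 3146% for ESAM-KO, and without Cd37 it was 1959% and 2189%, higher for ESAM-KO. The sum over the members was 994.6% and 736.2%, and without Ciita 633.2% and 347.9%. The part of B cells in the class II values was not tested.

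Markers of dendritic cells gave 1 lower and 1 higher gene among the 7 with a ratio of 14 named on the array, with a median of -0.12. Sirpa, a receptor also found on macrophages and neutrophils, read 76.8 and 13.7 (-2.80), and Fscn1 15.1 and 33.9 (0.85). The higher one was Clec10a (14 and 393.6, log2 ratio of 4.49 or above), whose WT reading was not above background. The defining markers Itgax, Xcr1, Clec9a, Batf3 and Cd209a stood well above background on neither array, and the summed signals were 11681% and 10696%, or 2735% and 2481% without Mgl2. For plasmacytoid dendritic cells, 9 of 11 genes had a ratio, with 1 lower and none higher and a median of -0.05. The lower one was Spib, an Ets factor close to Spi1 that B cells also express (345.9 and 30.9, log2 ratio -3.80), and next in size was Cox6a2 (-0.81). The summed signals were 4371% and 4060%, or 921.3% and 721.8% without Siglech. The Siglech probe in the sum read 6948 and 8383, whereas another stood well above background on neither array.

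Among macrophage markers, 10 of the 17 named on the array had a ratio, with 1 lower, 2 higher and a median of 0.23. Vcam1, an adhesion molecule of marrow macrophages and stroma, read 121.5 and 20.6 (-2.88), with a second probe at -1.03, while C1qa, a complement subunit, read 17.7 and 50.3 (1.19) and Axl was higher by its bound (1.94). Mrc1, Mertk, Timd4 and Cd163 stood well above background on neither array, and the summed signals were 3600% and 3321%, or 345.8% and 409.8% without Csf1r. The Csf1r probe in the sum read 6554 and 7310 (-0.16), whereas a dimmer one read 63.2 and 124.6 (0.66). A further Csf1r probe (9.99 and 16.1) stood well above background on neither array. Of the monocyte markers, 7 of 10 had a ratio with a median of -0.21. The lower one was F13a1 by its bound (-1.58), the higher one was S100a4 (1.21), and next was Cx3cr1 (0.96). Ccr2 and Ly86 stood above background on neither array, whereas Fcgr1 (0.12) and Cd14 (-0.21) did so on both. The summed signals were 38354% and 33282%, or 431.9% and 597.9% without Itgam. The Itgam probes disagreed. The one in the sum read 76375 and 82076 (-0.21), and dimmer ones read 269.6 and 115.9 (-1.54) and 81.7 and 69.8 (-0.55). Of the T, NK and innate lymphoid markers, 7 of 13 had a ratio with a median of 0.28 and the lower one was Cd3d by its bound (-1.91). Cd4 (0.62) and Cd3e (0.42) were the largest above background on both arrays, but the Cd4 value rests on 1 spot and another Cd4 probe of 10 spots gave -0.06 with a scanner error of 0.07. The summed signals were 1335% and 1533%, and without Nkg7 424.7% and 551.2%.

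Neutrophil genes differed most of the lists examined. Of 12, all above background on both arrays, 11 were lower by more than 2-fold and none was higher, with a median of -3.32. Ctsg, a granule protease, read 1373 for WT and 66.6 for ESAM-KO (-4.68), and Ltf, lactoferrin, 1394 and 94.8 (-4.20). The summed signals were 54680% and 34166%, or 29782% and 4022% without Csf3r, the gene of the list that was not lower (0.28). Neutrophils are not a usual source of class II transcripts, and the part of these cells, or of any other cell type, in the class II values was not tested.

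The members' values shifted together with the scaling and moved one by one with the treatment of dim signals. Under the 12 alternatives other than thresholds, the log2 ratio of H2-Aa ran from -2.21 to -0.86 and that of Cd74 from -1.49 to -0.99. That of H2-DMb1 ran from -1.49 to -0.75 and that of H2-DMa from -1.13 to -0.68. H2-Ab1 (-0.39 to 0.06), H2-Eb1 (0.09 to 0.55) and Ciita (-0.03 to 0.42) stayed within 2-fold under all of them. The values nearest to 0 for H2-Aa, Cd74, H2-DMb1 and H2-DMb2 came from normexp background correction with an offset of 50, which was applied to raw spot signals and was followed by quantile normalization. Under it H2-Aa was at -0.86, Cd74 at -0.99, H2-DMb1 at -0.75 and H2-DMb2 at -0.54, so that no member was lower by more than 2-fold, and 3.44% of all genes were, against 8.43% above.

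**Figure D5:**
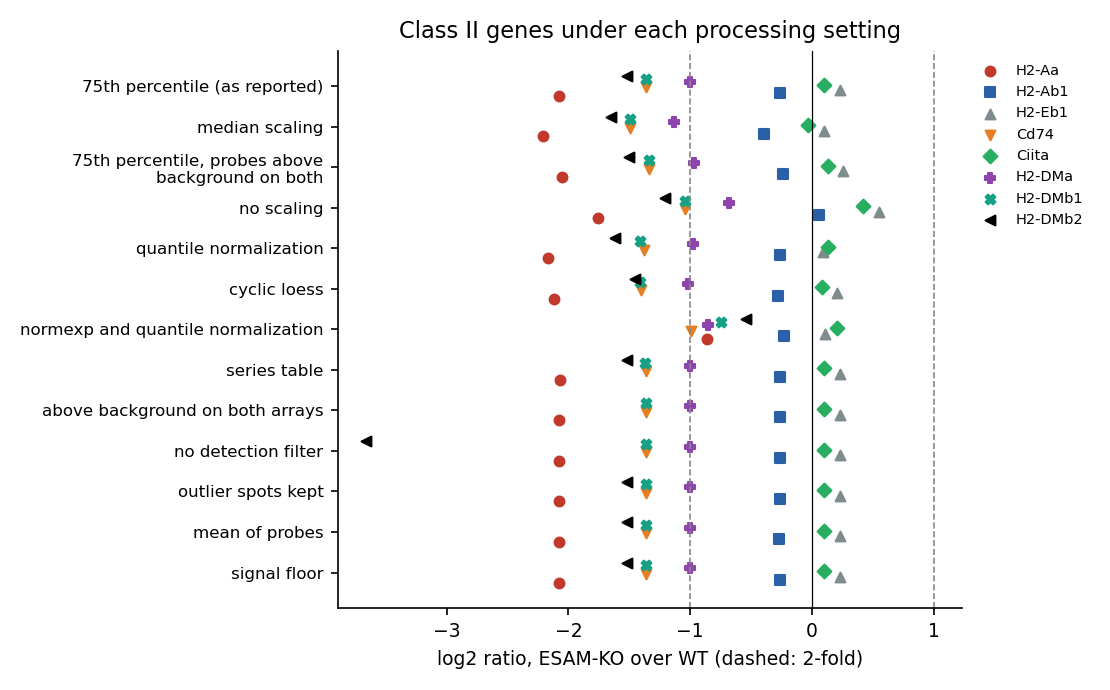
Log2 ratio of ESAM-KO over WT of each class II gene (symbols) as reported and under the 12 alternatives other than thresholds, listed on the vertical axis. Dashed lines mark 2-fold. H2-Ab1, H2-Eb1 and Ciita stay between -0.39 and 0.55 throughout, whereas H2-Aa moves from -2.08 to -0.86 and H2-DMb2 from its bound of -1.52 to -0.54 with normexp, and to -3.66 with no detection filter.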

How the data were processed

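RNA of each pool was amplified, labelled with Cy3 and hybridised to an Agilent SurePrint G3 mouse array, 1 per genotype, and the intensity of each spot, background-subtracted but not scaled between arrays, was deposited by the authors as scanner files from Agilent Feature Extraction (version 10.10.1.1 in the submitters' processing notes). Control spots were left out, leaving 59305, and so were 254 spots that the scanner software marked as outliers on either array. Log2 intensity was set relative to the 75th percentile of its array, and spots of a probe were averaged. RefSeq accessions (GRCm38.p6, used for names) named 27235 probes. The brightest probe stood for a gene in counts. A probe was called above background if over 50% of its spots carried the scanner's mark for it. Where this held on 1 array, the ratio is a bound against the probe's own signal on the dim array or the smallest intensity so marked there (12.6 WT, 13.2 ESAM-KO), whichever is higher. Where it held on neither array, or where the bound was under 1-fold, no ratio is given.

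All members were named with every probe. Of the 17 other lists, the 2 or 3 genes of largest ratio above background on both arrays and defining markers were named, with exceptions stated. The values of some listed genes are not reported here. The members and lists were chosen with earlier results of these data known, and the X to Y spacing was set after the sequences had been seen. Alternatives were other scalings, normexp (on median spot signals, since mean spot signals were not used here), the deposited series table, other filters, probe summaries and thresholds. Python 3.11.15, numpy 2.4.6, pandas 2.3.3, matplotlib 3.10.9, R 4.3.3 and limma 3.58.1 were used. The counting was tested on simulated data in which only bright genes were changed and checked. Bounds and dim probes, such as those of H2-Aa, H2-Eb1 and H2-DMb2, were not covered by it. With so few arrays, precision is limited by their number.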

Additional observations from a re-analysis of the deposited data

How the results depend on the processing

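No paired analysis was possible because only 1 array per genotype was made. The count of members lower by more than 2-fold was 4, became 5 with median scaling or cyclic loess and 3 with probes above background on both arrays only, and was 0 with normexp and quantile normalization, which adds an offset to every signal and so draws ratios of dim probes towards 0. At thresholds of 3-fold and 4-fold it was 1. The median log2 ratio of the members, -1.18, was -0.86 without scaling and -0.65 with normexp, and ranged down to -1.31. No member was higher by more than 2-fold under any of the 15 alternatives. Without scaling the median of all genes was 0.31, with 5.12% lower and 12.7% higher by more than 2-fold. With median scaling it was -0.13, with 10.8% and 5.35%, and with no detection filter -0.14. Relative to the median of all genes without scaling, the members therefore lay as in the scaled values. Of 95 member values under alternatives, 84 moved by less than the scanner error. That share does not measure stability, because several alternatives could hardly move a member. Keeping outlier spots or using the signal floor left all members as reported. The mean of probes could change only H2-Ab1, and the other detection filters changed only H2-DMb2. H2-DMb2 depends most on the treatment of dim signal, from -0.54 with normexp to -3.66 with no detection filter.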
